A study of Lupinus albus with 12 samples.

Results

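Phosphoenolpyruvate carboxylase (PEPC) and PEPC kinase were followed through an RNA sequencing study of white lupin (Lupinus albus var. Ultra), a legume whose roots answer a shortage of phosphorus with dense clusters of short rootlets, known as proteoid or cluster roots. Members were chosen by description: the best protein hit in the deposited annotation had to carry ATPPC1, ATPPC2, ATPPC3, ATPPC4, PPCK1 or PPCK2 as a gene symbol of Arabidopsis. Of 125535 assembled sequences, 37 did so. The carboxylase accounted for 28 of them, 9 described as ATPPC1, 7 as ATPPC2, 10 as ATPPC3 and 2 as ATPPC4, and the kinase for 9, 8 described as PPCK1 and 1 as PPCK2. A floor of 1 RPKM (read numbers per unit of length and of library size, the unit the deposited values were taken to have) in at least 3 of the 12 libraries kept 35 members, 27 carboxylase and 8 kinase sequences. Several sequences share each description, and no sequence letters or genome positions of them were used, so copies of a gene, its isoforms and fragments of an incomplete assembly cannot be told apart. A description gives the closest Arabidopsis protein and is no proof of the same role in lupin.

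Each of 4 groups holds 3 biological replicates, for 12 libraries in all, from plants of this variety harvested 14 days after emergence. Deficient roots, which the labels call proteoid roots, and deficient leaves came from plants given 1 mM calcium sulfate. Sufficient roots and sufficient leaves came from plants given 1 mM calcium phosphate in its place. The root comparison therefore sets another root type as well as another supply against the sufficient roots, and the effects of root type and supply cannot be told apart. A field of the labels speaks of soil and another of nutrient solutions.

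PEPC joins bicarbonate to phosphoenolpyruvate, which yields oxaloacetate and sets phosphate free. Oxaloacetate feeds the synthesis of malate and citrate, the organic acids that cluster roots of white lupin are known to release into the soil, where they free bound phosphate. In Arabidopsis PPC1, PPC2 and PPC3 encode the plant type of the enzyme and PPC4 encodes the bacterial type, and PEPC kinase phosphorylates the plant type near its amino end, which makes it less sensitive to inhibition by malate.

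Leaf markers stood where the labels put them: summed RPKM of sequences described as small subunits of Rubisco ran from 20.7 to 108.3 in root libraries and from 12351.4 to 62286.0 in leaf libraries. The peroxidase RCI3 summed to 436.0 to 750.8 RPKM in root libraries and 1.3 to 4.2 RPKM in leaf libraries. Root markers also differed between supplies: RCI3 summed to 597.0 to 750.8 RPKM in deficient roots against 436.0 to 528.3 RPKM in sufficient roots, the expansin EXPA7 to 18.7 to 43.6 against 12.4 to 18.6 RPKM, and the phosphate exporter PHO1 to 182.9 to 202.7 against 116.4 to 135.8 RPKM. The UPF0497 membrane proteins (48.2 to 77.0 RPKM in deficient roots, 35.4 to 51.9 RPKM in sufficient roots) and the sulfate transporters SULTR1 (158.3 to 313.2 RPKM in deficient roots, 252.0 to 368.9 RPKM in sufficient roots) overlapped. The part of these markers in the root differences below was not tested. SPX2, a sensor of phosphate status in Arabidopsis, summed to 54.5 to 84.3 RPKM in deficient roots against 10.0 to 10.8 RPKM in sufficient roots. In leaves SPX2 summed to 19.9 to 125.3 RPKM with deficient and 13.5 to 25.4 RPKM with sufficient phosphorus, SPX3 to 0.9 to 19.7 and 0.1 to 1.0 RPKM, the acid phosphatase PAP10 to 6.2 to 15.7 and 10.1 to 33.9 RPKM, and the phosphate transporter PHT5 to 2.3 to 12.7 and 13.8 to 24.7 RPKM. A single library stood apart, that of deficient leaves of replicate 3. There 70.9% of all RPKM belonged to the 20 largest sequences (12.5% to 18.0% in other leaf libraries), and the median over tested sequences was 0.9 RPKM (2.1 to 2.7 RPKM in the other 11 libraries). Depth is unknown, since no read counts were used. In whole organs, fewer cells of a type and less RNA per cell cannot be told apart.

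The enzyme and its kinase differed in overall level. Summed over all 28 sequences, PEPC stood at 1054.2, 700.2 and 577.1 RPKM in deficient roots (replicates 1 to 3), against 791.2, 471.4 and 398.3 RPKM in sufficient roots. In leaves the PEPC sum was 469.1, 408.7 and 159.5 RPKM with deficient phosphorus, against 368.4, 181.1 and 154.8 RPKM with sufficient phosphorus. The groups overlapped in both organs, while within each replicate number the deficient sum was the higher. The 8 PPCK1 sequences summed to 50.1, 69.1 and 81.4 RPKM in deficient roots, against 23.6, 35.4 and 45.0 RPKM in sufficient roots, and these groups did not overlap. In leaves the PPCK1 sum was 18.9, 63.3 and 14.9 RPKM with deficient phosphorus, against 10.7, 15.2 and 18.1 RPKM with sufficient phosphorus, so that 1 deficient library lay far above the others. These sums add assembled pieces and can count a read's gene more than once.

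**Figure D1:**
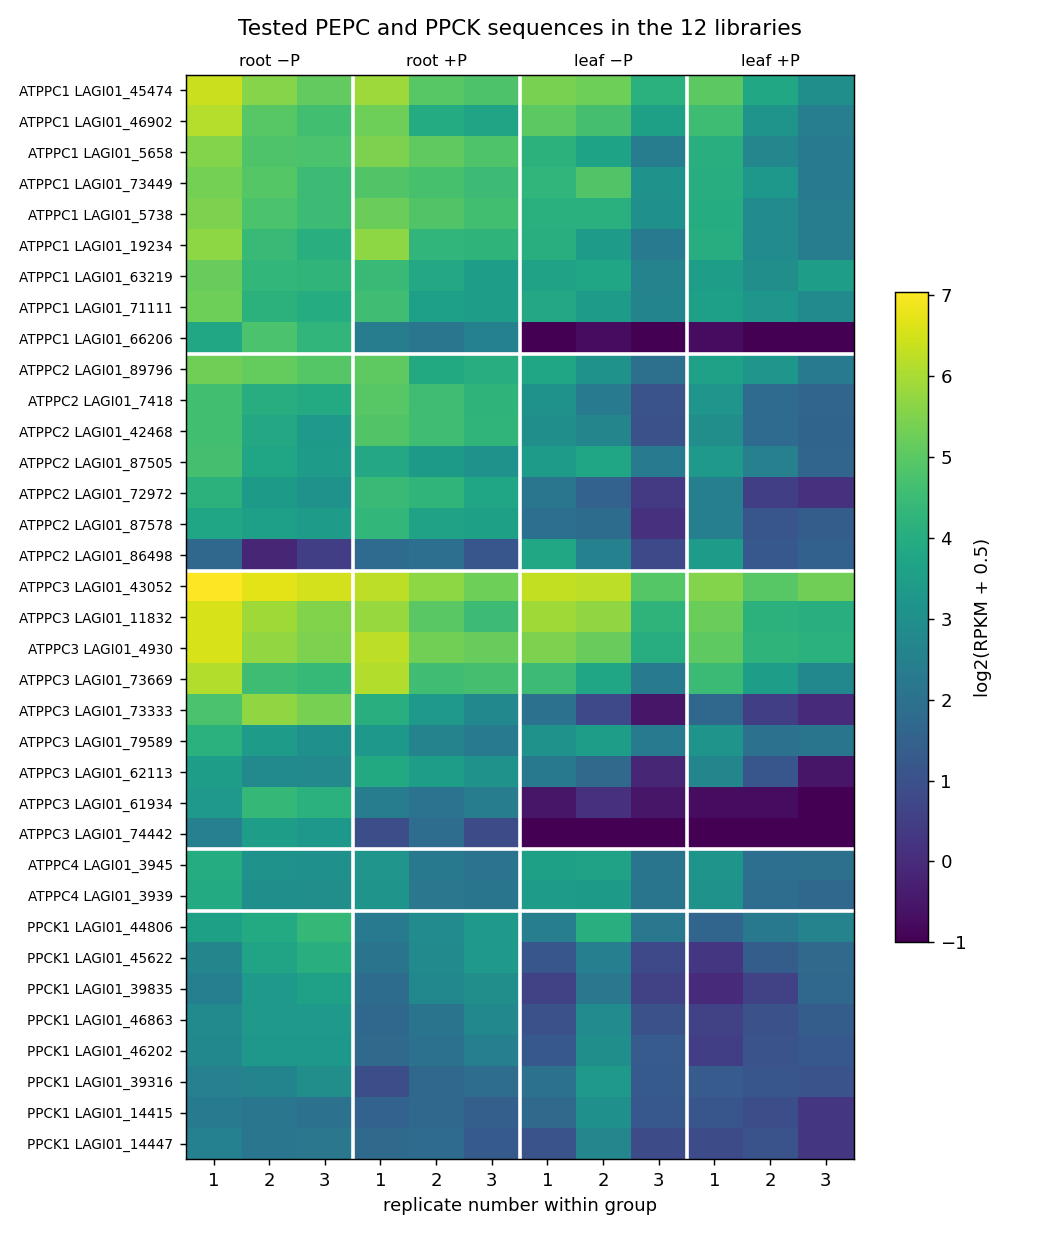
Heat map of the 35 tested sequences (rows, grouped by description) in the 12 libraries (columns, deficient, −P, left of sufficient, +P, within each organ), coloured by log2(RPKM + 0.5). ATPPC3 LAGI01_43052 was the brightest row, and LAGI01_66206, LAGI01_61934 and LAGI01_74442 were dark in the leaves, where none exceeded 0.6 RPKM.

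Between deficient and sufficient roots a few PEPC sequences passed the test. With a call set at a limma adjusted p below 0.05 over all 87081 sequences tested, 3 of 27 PEPC sequences rose in deficient roots and 0 fell, where 0.279% of all tested sequences were called, 0.245% as higher and 0.0345% as lower. None of the 8 kinase sequences was called. The 3 that rose were 1 ATPPC1 and 2 ATPPC3 sequences at low or intermediate level, and all were at or near 0 in leaves. Their profiles were close over the 12 libraries (Pearson r 0.97 to 0.99), so they may share reads and need not be 3 independent measurements. The median log2 difference of the 27 PEPC sequences was 0.49, with 18 above 0 and 9 below, against 0.00 over all tested sequences. With clock genes, described below, as a covariate the PEPC median was 0.01.

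ATPPC1 LAGI01_66206 stood at 13.4, 26.4 and 19.3 RPKM in deficient roots, against 4.8, 4.0 and 5.3 RPKM in sufficient roots. All 3 deficient libraries lay above all 3 sufficient ones, and the sufficient ones were close together. Its mean was 19.70 ± 6.51 RPKM in deficient roots and 4.70 ± 0.66 RPKM in sufficient roots (SD, n = 3 each), a log2 difference of 1.91 (SE 0.32, limma adjusted p = 0.0109). All 3 replicate numbers showed the rise, by 1.39, 2.58 and 1.77 on the log2 scale.

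ATPPC3 LAGI01_74442 stood at 5.2, 10.6 and 9.2 RPKM in deficient roots, against 1.4, 3.2 and 1.3 RPKM in sufficient roots. It was listed at 0 in all 6 leaf libraries. The root groups did not overlap, and the log2 difference was 1.87 (SE 0.36, limma adjusted p = 0.0336), with values of 1.58, 1.58 and 2.43 in the 3 replicate numbers.

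ATPPC3 LAGI01_61934 stood at 9.8, 20.1 and 17.2 RPKM in deficient roots, against 4.7, 3.7 and 4.8 RPKM in sufficient roots. These groups did not overlap either, and replicate 1 was the lowest deficient library, as in the other 2 sequences that rose. The log2 difference of 1.67 (SE 0.34) lay at the threshold (limma adjusted p = 0.04997).

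The 3 calls rested on few libraries. Without deficient root replicate 2, deficient root replicate 3 or sufficient root replicate 3 none of the 3 was called, with log2 differences of 1.47 to 2.00 and limma adjusted p of 0.0567 to 0.27 in those fits. Without sufficient root replicate 1 or leaf sufficient replicate 2 only LAGI01_66206 passed, and without sufficient root replicate 2 only LAGI01_74442 passed. LAGI01_61934 alone was lost without leaf deficient replicate 1, leaf sufficient replicate 1 or leaf sufficient replicate 3 (limma adjusted p = 0.0729, 0.072 and 0.0788), which enter only through the shared spread.

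ATPPC3 LAGI01_73333 stood at 26.8, 52.0 and 41.3 RPKM in deficient roots, against 15.9, 9.4 and 6.2 RPKM in sufficient roots. It had the largest log2 difference of the 35 members, 1.93, with the groups apart, but the spread between libraries was wide (SE 0.58, 95% interval 0.70 to 3.15, limma adjusted p = 0.386) and it was not called. Replicate 1 differed by 0.74, against 2.41 and 2.64 in replicates 2 and 3. Replicate 1 was sequenced without barcodes and 1 library per lane, and replicates 2 and 3 with barcodes and 2 libraries per lane. Within the barcoded libraries alone LAGI01_73333 was called (log2 difference 2.52, SE 0.52, limma adjusted p = 0.00619), together with the 3 sequences above, where 0.508% of all tested sequences were called. Clock genes differed with the replicate number and, within each number, with the supply. The mean log2 level of 34 sequences described as morning genes (LHY and CCA1) minus that of 39 described as evening genes (TOC1, GI and APRR5) was 0.74, -0.87 and -1.14 in deficient roots and -0.34, -2.22 and -2.39 in sufficient roots. With this difference as a covariate the root difference of LAGI01_73333 was 1.44 (limma adjusted p = 0.502), that of LAGI01_66206 1.93 (adjusted p = 0.0151) and that of LAGI01_74442 1.99 (adjusted p = 0.0249). That of LAGI01_61934 was 1.73 and no longer called (limma adjusted p = 0.0531).

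**Figure D2:**
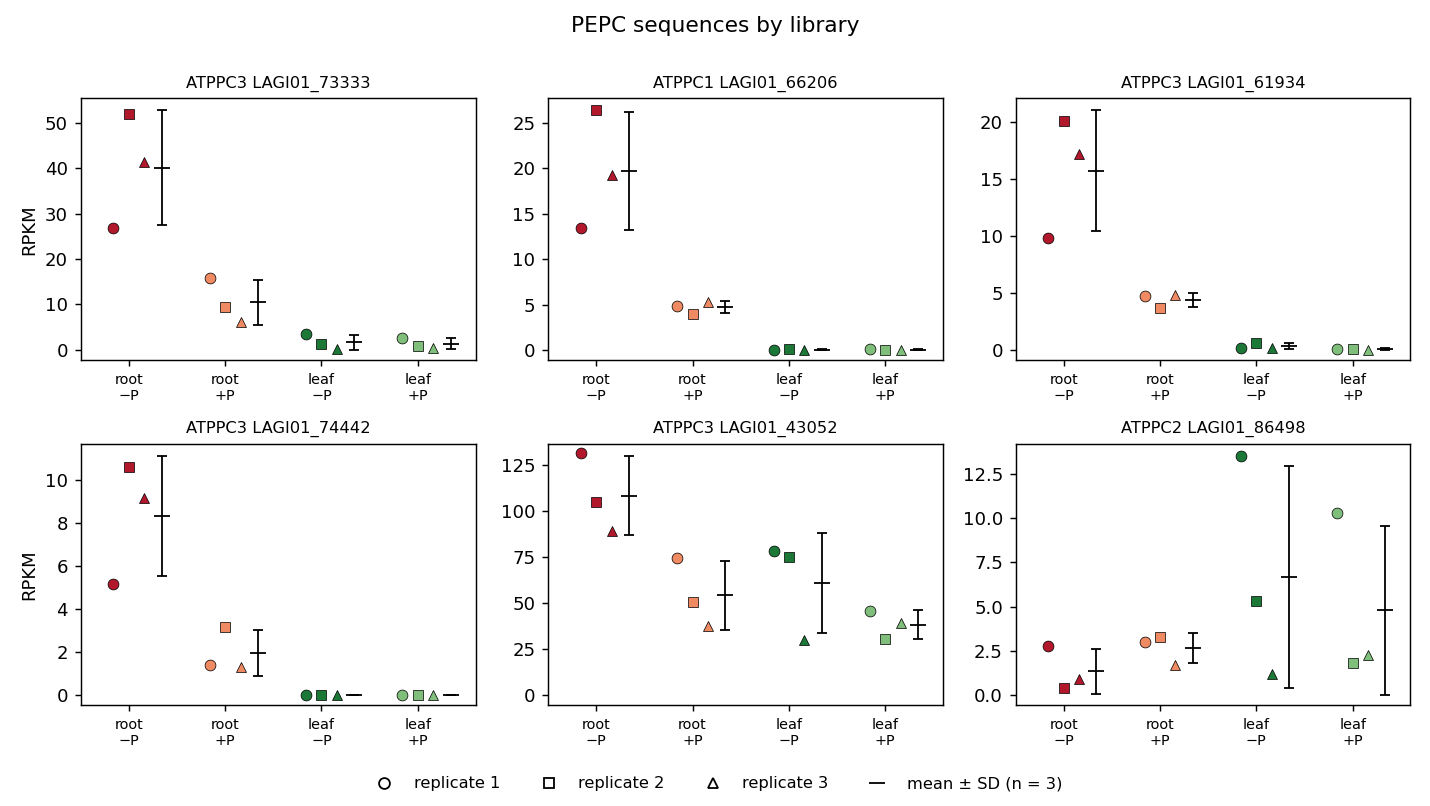
RPKM (linear axis, a separate scale in each panel) of 6 PEPC sequences in every library, with −P left of +P in roots and in leaves. Symbols mark replicates 1 to 3 and bars the mean ± SD (n = 3). In the first 4 panels all deficient roots lie above all sufficient roots and the leaves lie at or under 3.5 RPKM. In the last panel (LAGI01_86498) the highest values, 13.5 and 10.3 RPKM, are leaf libraries of replicate 1.

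LAGI01_66206, LAGI01_74442, LAGI01_61934 and LAGI01_73333 shared a profile: under 5 RPKM in all leaf libraries and no overlap between the root groups. This set was picked from its values and was not tested as a set. Its share of the summed PEPC was 5.24%, 15.58% and 15.08% in deficient roots, against 3.39%, 4.31% and 4.42% in sufficient roots. Within each root group replicate 1 had the lowest share. In leaves the share was 0.79%, 0.46% and 0.25% with deficient phosphorus, against 0.79%, 0.55% and 0.32% with sufficient phosphorus. The 4 were correlated with each other over the 12 libraries (Pearson r 0.93 to 0.99 on the log2 scale), which includes the contrast of root and leaf that all of them share.

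The most abundant PEPC sequence behaved less sharply. ATPPC3 LAGI01_43052, with a mean of 65.53 RPKM over the 12 libraries, stood at 131.1, 104.8 and 88.9 RPKM in deficient roots, against 74.6, 50.7 and 37.8 RPKM in sufficient roots. The groups did not overlap, and the log2 difference of 1.02 (95% interval 0.06 to 1.98) was not called (limma unadjusted p = 0.0379, adjusted p = 1). Both groups were ordered by replicate in the same way, with replicate 1 highest.

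The remaining 5 ATPPC3 sequences were not called and their root groups overlapped. LAGI01_11832 (44.9 to 94.4 RPKM in deficient roots, 22.2 to 55.6 RPKM in sufficient roots) and LAGI01_79589 (7.7 to 17.2 RPKM in deficient roots, 4.4 to 9.3 RPKM in sufficient roots) had log2 differences of 0.89 and 0.80. LAGI01_4930, the third most abundant PEPC sequence, had 0.33, with 43.2 to 93.3 RPKM in deficient roots and 35.7 to 74.5 RPKM in sufficient roots. LAGI01_73669 and LAGI01_62113 lay on the other side, at -0.10 and -0.47. The description ATPPC3 thus covered root differences between -0.47 and 1.93, with a median of 0.89 over 9 tested sequences. The tenth, LAGI01_121194, stayed under the floor with at most 1.2 RPKM.

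Of 9 ATPPC1 sequences, the 8 besides LAGI01_66206 were not called in roots and their groups overlapped. The largest was LAGI01_45474, at 83.6, 47.2 and 34.3 RPKM in deficient roots, against 58.3, 30.6 and 27.4 RPKM in sufficient roots, where the differences between replicates exceeded the difference between supplies (log2 0.48, SE 0.55). LAGI01_46902 had the second largest log2 difference of this description, 0.94 (SE 0.60). It stood at 70.2, 30.6 and 24.0 RPKM in deficient roots, against 37.8, 14.8 and 12.5 RPKM in sufficient roots. Within replicates 1 to 3 LAGI01_45474 was higher by log2 0.52, 0.62 and 0.32, and LAGI01_46902 by 0.88, 1.02 and 0.91. Neither was called with a replicate block within each tissue (limma adjusted p = 0.99 and 0.427). LAGI01_5658, LAGI01_5738 and LAGI01_19234 lay between -0.07 and 0.02, and LAGI01_73449, LAGI01_71111 and LAGI01_63219 between 0.24 and 0.64.

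Most ATPPC2 sequences leaned the other way, while their summed level was nearly equal between root supplies. The sum was 108.9 ± 31.6 RPKM in deficient roots and 113.2 ± 31.9 RPKM in sufficient roots (SD, n = 3 each, log2 -0.06, SE 0.54). None of the 7 was called in roots and their median log2 difference was -0.40, against 0.00 over all tested sequences. Of these, 5 were lower with deficient phosphorus in all 3 replicate numbers, for example LAGI01_72972 at 17.3, 10.0 and 8.3 RPKM in deficient roots, against 20.9, 18.6 and 13.0 RPKM in sufficient roots (log2 -0.58, SE 0.57). LAGI01_42468, LAGI01_7418, LAGI01_87578 and LAGI01_86498 were the other 4, at -0.63, -0.40, -0.26 and -0.94. The remaining 2 were higher in all 3 numbers: LAGI01_87505 (log2 0.49) and LAGI01_89796, which stood at 39.2, 34.5 and 29.5 RPKM in deficient roots, against 32.3, 14.3 and 15.5 RPKM in sufficient roots (log2 0.81, SE 0.50). Every ATPPC2 sequence had root groups that overlapped. LAGI01_72972, LAGI01_42468, LAGI01_7418 and LAGI01_87578 were correlated over the 12 libraries (Pearson r 0.96 to 0.99), which includes the contrast of root and leaf. They may share reads and need not be independent measurements.

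The ATPPC4 sequences, of the bacterial type in Arabidopsis, were low and nearly equal to each other. LAGI01_3945 stood at 15.2, 8.0 and 7.7 RPKM in deficient roots, against 8.6, 4.3 and 3.7 RPKM in sufficient roots, and LAGI01_3939 at 14.7, 7.5 and 7.4 RPKM in deficient roots, against 8.5, 4.1 and 3.9 RPKM in sufficient roots. Their log2 differences were 0.86 (SE 0.50) and 0.80 (SE 0.49), and neither was called. With values this close in every library (r 0.99 over 12 libraries), they may share reads and need not be 2 independent measurements.

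PEPC kinase pointed one way in roots without a call. All 8 PPCK1 sequences were higher with deficient phosphorus in every replicate number, by a median log2 difference of 0.86, with estimates from 0.61 to 1.20. Over the 35 members, 24 were higher in all 3 numbers and 7 lower, against 18.9% and 16.3% of all tested sequences. Root groups of 6 of the 8 PPCK1 and 5 of the 27 PEPC sequences did not overlap, with the deficient libraries above, against 6.79% of all tested sequences. No member had its deficient roots wholly below, against 4.39% of all tested sequences.

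PPCK1 LAGI01_44806, the most abundant kinase sequence, stood at 11.4, 14.7 and 20.0 RPKM in deficient roots, against 4.4, 6.9 and 9.7 RPKM in sufficient roots. Both groups had replicate 1 lowest and replicate 3 highest, and they did not overlap. The log2 difference was 1.11 (SE 0.49, 95% interval 0.08 to 2.14, limma adjusted p = 1). LAGI01_39316 had the largest difference among the kinase sequences, 1.20 (SE 0.45, limma adjusted p = 0.792), at 5.2, 5.7 and 7.4 RPKM in deficient roots, against 1.4, 2.8 and 3.2 RPKM in sufficient roots. Here too the groups did not overlap.

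The other 4 kinase sequences without overlap ranged from 3.5 to 9.6 RPKM in deficient roots and from 1.9 to 6.2 RPKM in sufficient roots. LAGI01_46202 stood at 6.2, 9.2 and 9.2 RPKM in deficient roots, against 2.9, 3.5 and 5.0 RPKM in sufficient roots. LAGI01_46863 stood at 6.5, 9.5 and 9.6 RPKM in deficient roots, against 2.7, 3.8 and 6.2 RPKM in sufficient roots. Replicate 1 was the lowest library in both groups of both sequences. LAGI01_14447 stood at 5.3, 4.0 and 4.1 RPKM in deficient roots, against 2.9, 3.0 and 1.9 RPKM in sufficient roots. LAGI01_14415 stood at 4.4, 4.0 and 3.5 RPKM in deficient roots, against 2.4, 2.7 and 2.2 RPKM in sufficient roots. In this pair replicate 1 was the highest deficient library. LAGI01_45622 and LAGI01_39835, at 5.1 to 15.9 RPKM in deficient roots and 3.1 to 9.5 RPKM in sufficient roots, overlapped because replicate 1 was low in both groups. Correlations among the 8 over 12 libraries ran from 0.48 to 0.99, and they need not be 8 independent measurements. PPCK2 LAGI01_83020 was under the floor, at 1.2, 0.2 and 0.2 RPKM in deficient roots and listed at 0 in the 3 sufficient roots. Its highest value, 3.3 RPKM, was in deficient leaves of replicate 2.

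**Figure D3:**
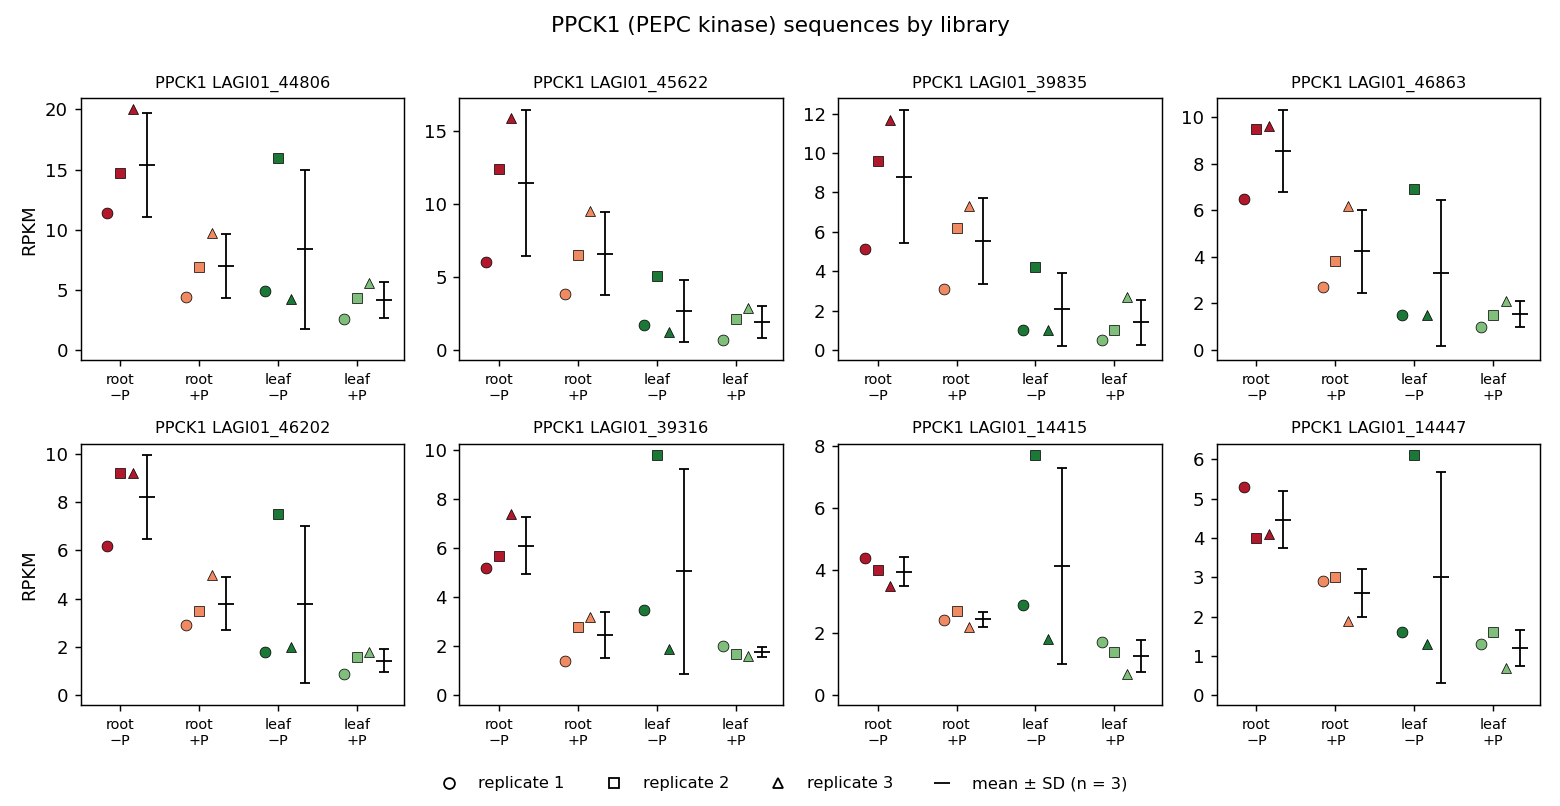
RPKM (linear axis, a separate scale in each panel) of the 8 tested PPCK1 sequences in every library, −P left of +P in roots and in leaves, with symbols for replicates 1 to 3 and bars for the mean ± SD (n = 3). The deficient leaf library of replicate 2 is the highest leaf library in all 8 panels, between 4.2 and 16.0 RPKM, and the wide deficient leaf bars come from it.

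In leaves no member was called at a limma adjusted p below 0.05, where 0.0276% of all tested sequences were called. An unadjusted p below 0.05 was found in 2 of the 35 members, both PPCK1, against 6754 of all 87081 tested sequences. The smallest was that of PPCK1 LAGI01_14415, at 2.9, 7.7 and 1.8 RPKM in deficient leaves, against 1.7, 1.4 and 0.7 RPKM in sufficient leaves. Its groups did not overlap, by a narrow margin of 1.8 RPKM over 1.7 RPKM, and the log2 difference was 1.23 (SE 0.41, 95% interval 0.35 to 2.10, limma adjusted p = 0.419). LAGI01_39316 was the other, at 3.5, 9.8 and 1.9 RPKM in deficient leaves, against 2.0, 1.7 and 1.6 RPKM in sufficient leaves (log2 1.03, SE 0.45, limma adjusted p = 0.6).

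Deficient leaves of replicate 2 carried much of the kinase difference. LAGI01_44806 stood at 4.9, 16.0 and 4.2 RPKM in deficient leaves, against 2.6, 4.3 and 5.6 RPKM in sufficient leaves, so that replicate 3 lay on the other side (log2 0.74, SE 0.49, limma adjusted p = 0.749). The median of the 8 PPCK1 sequences in leaves was 0.78, and without deficient leaf replicate 2 it was 0.20, with 6 above 0 and 2 below. Without the library that stood apart, deficient leaf replicate 3, the kinase median was 1.12, and it was 1.48 with clock genes as a covariate.

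PEPC sequences in leaves had a median log2 difference of 0.33, against -0.24 over all tested sequences. The median of all sequences was shifted by deficient leaf replicate 3, and with median-of-ratios scaling it was -0.03 and that of PEPC 0.57. Without that library the PEPC median was 0.83, with every sequence above 0 but LAGI01_74442, which was listed at 0 in all leaf libraries. Without deficient leaf replicate 1, but with sufficient leaf replicate 1 kept, the PEPC median was 0.00. With replicate 1 left out of both groups (the barcoded libraries alone) it was 0.46, with 20 above 0 and 6 below. With clock genes as a covariate the PEPC median changed sign, to -0.80, with 24 of 27 below 0. The morning minus evening difference stood at 3.03, 1.97 and 1.49 in deficient leaves and 1.43, -2.33 and -2.29 in sufficient leaves, with every deficient leaf above every sufficient one.

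ATPPC3 LAGI01_43052 was also the most abundant PEPC sequence in leaves, at 78.3, 75.2 and 29.9 RPKM with deficient phosphorus, against 45.8, 30.3 and 39.0 RPKM with sufficient phosphorus. Deficient replicate 3 was the lowest of the 6 leaf libraries and the other deficient ones the highest (log2 0.56, SE 0.45, and 1.01 without that replicate). The largest estimates in PEPC were those of ATPPC1 LAGI01_46902 and LAGI01_45474, at 1.04 (SE 0.60) and 1.00 (SE 0.55). LAGI01_45474 stood at 42.5, 38.2 and 17.1 RPKM in deficient leaves, against 32.0, 13.6 and 7.5 RPKM in sufficient leaves, higher within each replicate number while the groups overlapped. All 3 replicate numbers were higher in 14 of the 35 members and lower in 0, against 3.90% and 15.3% of all tested sequences. The leaf groups of 2 members did not overlap, against 0.722% of all tested sequences with deficient leaves above, and 0 lay below, against 4.45%. Beside LAGI01_14415 this was ATPPC3 LAGI01_61934, at 0.2, 0.6 and 0.2 RPKM in deficient leaves and 0.1, 0.1 and 0.0 RPKM in sufficient leaves.

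**Figure D4:**
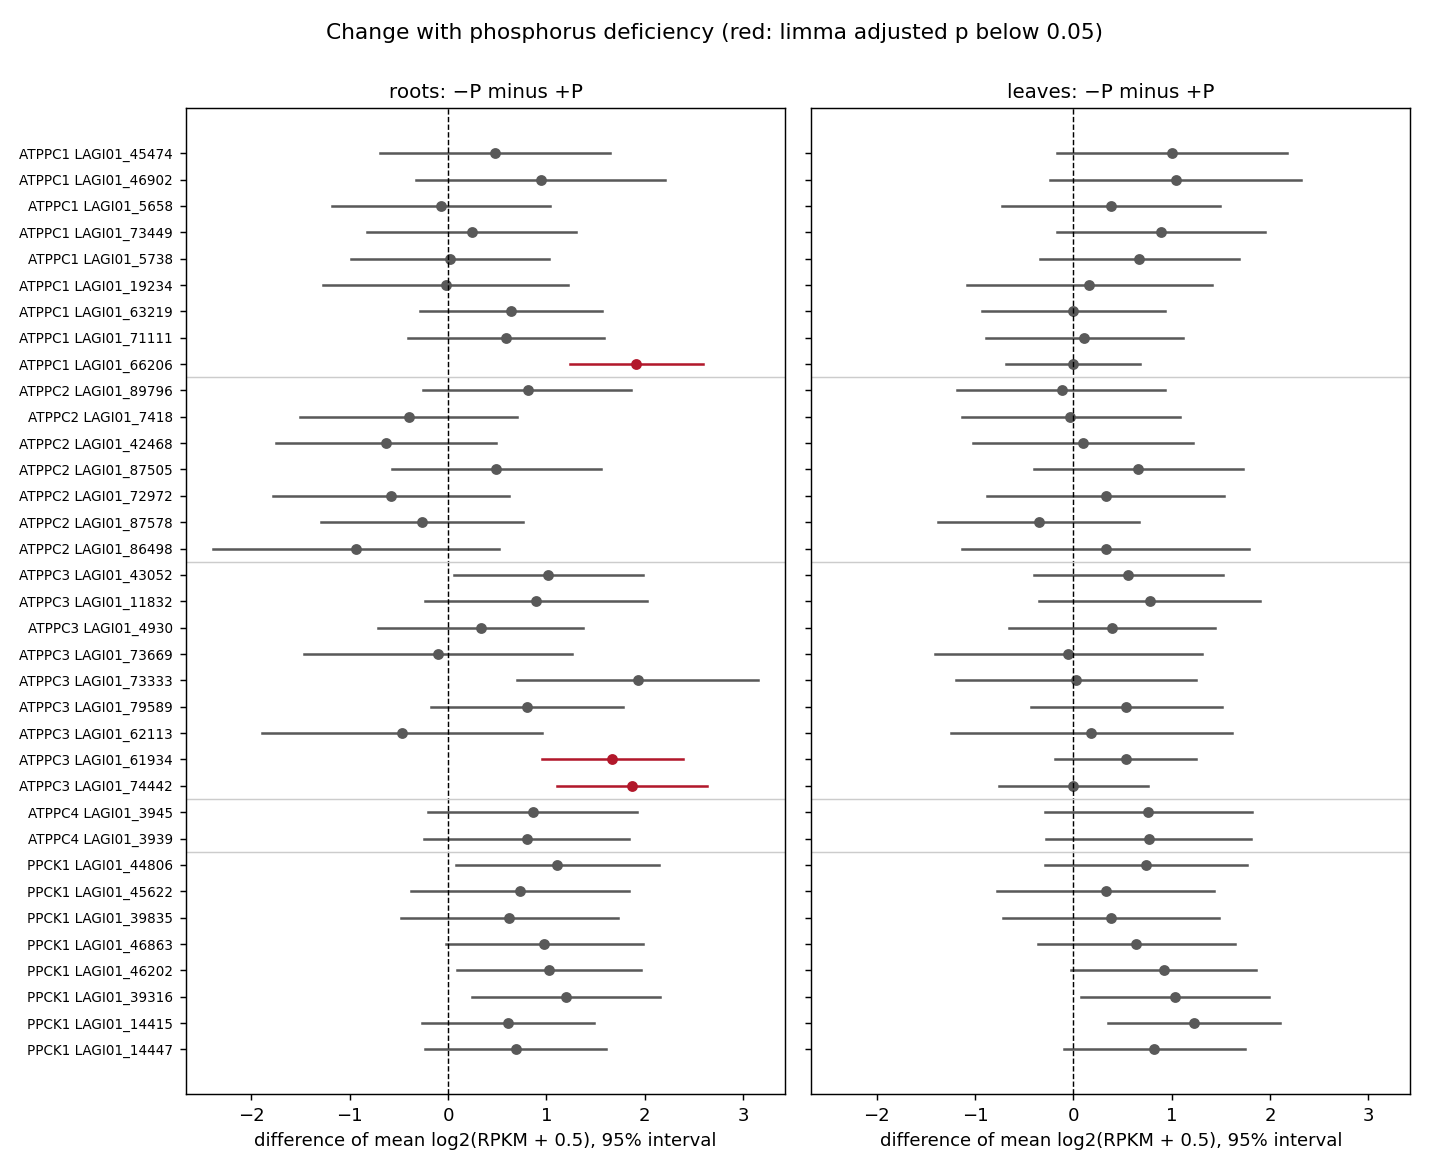
Deficient minus sufficient difference of mean log2(RPKM + 0.5) for each tested member in roots (left) and leaves (right), with points for estimates and lines for 95% limma intervals. Red marks the 3 root calls. All 8 PPCK1 points lie above 0 in both panels and 5 of 7 ATPPC2 points lie below 0 in roots.

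Whether the response differed between organs was tested as the root response minus the leaf response. No member was called with limma, where 0.0597% of all tested sequences were called. The unadjusted p was below 0.05 in 4 of 35, against 5160 of all 87081 tested sequences. These were the 4 sequences low in leaves. Of them LAGI01_66206, LAGI01_74442 and LAGI01_61934 reached 1 RPKM in root libraries alone. Their leaf libraries lay at or under 0.6 RPKM, so little leaf response could show, and no difference of responses is given for them. For LAGI01_73333 the difference of responses was 1.90 (SE 0.82, limma adjusted p = 0.812). Within the barcoded libraries that of LAGI01_73333 was called (limma adjusted p = 0.047), where 1.79% of all tested sequences were called. Its leaf libraries there lay at or under 1.2 RPKM, so little leaf response could show for it either. For PPCK1 LAGI01_44806 the difference of responses was 0.37 with a 95% interval from -1.08 to 1.83, which includes both a stronger and a weaker response in roots.

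Between organs, members leaned to the root. With deficient phosphorus 16 of 35 members were called higher in roots than in leaves and 0 lower, against 29.0% higher and 13.2% lower among all tested sequences. With sufficient phosphorus it was again 16 higher and 0 lower, against 24.1% and 17.8%. PEPC sequences made up 12 of the 16 with deficient and 13 of the 16 with sufficient phosphorus. In 12 PEPC sequences and 0 PPCK1 sequences all 6 root libraries exceeded all 6 leaf libraries, against 23.5% of all tested sequences, and no member had all 6 below, against 10.5%. Deficient leaf replicate 3 entered the first of these contrasts, and without it 10 members were called higher and 1 lower, against 23.4% and 18.7% of all tested sequences in that fit.

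LAGI01_66206, LAGI01_61934 and LAGI01_74442 reached 1 RPKM in the 6 root libraries alone, so that they entered the tested set through the organ in which they were high. No organ difference or test is given for them, and both counts of 16, like the 12 PEPC sequences without overlap, include these 3. ATPPC3 LAGI01_73333, which reached that level in 9 libraries, exceeded the leaves by 4.54 on the log2(RPKM + 0.5) scale with deficient phosphorus (limma adjusted p = 8.72e-06) and by 2.64 with sufficient phosphorus (limma adjusted p = 0.00136). The pseudocount weighs on the size of these values, since its leaf libraries lay at or under 3.5 RPKM.

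ATPPC2 came next, with 5 of 7 called higher in deficient roots than in deficient leaves and 4 of 7 at sufficient supply. LAGI01_72972, at 17.3, 10.0 and 8.3 RPKM in deficient roots against 4.0, 2.4 and 0.8 RPKM in deficient leaves, exceeded them by 2.20 (SE 0.57, limma adjusted p = 0.00507). LAGI01_86498 was the exception among all 35 members, the sole estimate on the side of the leaf. It stood at 2.8, 0.4 and 0.9 RPKM in deficient roots against 13.5, 5.3 and 1.2 RPKM in deficient leaves (log2 -1.68, SE 0.69, limma adjusted p = 0.0591). It was called as lower in roots in 9 of 23 alternatives, with log2 differences from -2.49 to -0.04. With sufficient phosphorus it had 3.0, 3.3 and 1.7 RPKM in roots against 10.3, 1.8 and 2.3 RPKM in leaves (log2 -0.42, adjusted p = 0.666), where replicate 1 alone was high in the leaf.

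ATPPC3 LAGI01_43052 and both ATPPC4 sequences were not called between organs. Deficient roots stood at 88.9 to 131.1 RPKM for LAGI01_43052, all above deficient leaves at 29.9 to 78.3 RPKM. LAGI01_43052 differed between roots and leaves by 0.92 (limma adjusted p = 0.114) with deficient and 0.46 (adjusted p = 0.447) with sufficient phosphorus, with 95% intervals of -0.04 to 1.88 and -0.50 to 1.42. LAGI01_3945 and LAGI01_3939 differed by 0.15 to 0.31 across both supplies, with none called. Among PPCK1 sequences LAGI01_45622 and LAGI01_39835 had the largest organ differences, 2.01 each with deficient phosphorus (limma adjusted p = 0.00529 and 0.00521) and 1.61 and 1.76 with sufficient phosphorus. With clock genes as a covariate none of the 8 kinase sequences was called between deficient roots and deficient leaves, against 4 without it. LAGI01_14415 differed by 0.15 with deficient phosphorus (adjusted p = 0.796), at 4.4, 4.0 and 3.5 RPKM in roots and 2.9, 7.7 and 1.8 RPKM in leaves.

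Enzymes around PEPC were counted beside it, as 260 tested sequences chosen by description. Enolase, pyruvate orthophosphate dikinase and phosphoenolpyruvate carboxykinase supply its substrate, and pyruvate kinase competes for it. Carbonic anhydrase makes bicarbonate, malate dehydrogenase and citrate synthase use oxaloacetate, and malic enzyme uses malate. PEPC-related kinases were counted as well. No neighbour was called in roots or in leaves with limma. The unadjusted p was below 0.05 in 14 and 6 of the 260, against 3756 and 6754 of all 87081 tested sequences. The median root difference was 0.09 over the 260. Of the carbonic anhydrases, 37 of 38 sequences lay above 0 in roots (median 0.61) and 36 of 38 below 0 in leaves (median -0.51). Of all 87081 tested sequences, 45029 lay above 0 in roots and 63225 below 0 in leaves. The leaf count rested on deficient leaf replicate 3: without it 17 of 38 lay below 0 (median 0.02), and with median-of-ratios scaling 27 of 38 (median -0.25).

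Carbonic anhydrase LAGI01_85914 stood at 49.3, 61.6 and 92.4 RPKM in deficient roots, against 10.6, 21.0 and 24.9 RPKM in sufficient roots. The groups were apart, and the log2 difference of 1.86 (SE 0.47) was not called (limma adjusted p = 0.171). Phosphoenolpyruvate carboxykinase LAGI01_80439, which runs from oxaloacetate back to phosphoenolpyruvate, stood at 3.3, 1.1 and 1.0 RPKM in deficient roots. Sufficient roots were at 0.0, 0.1 and 0.2 RPKM. It reached 1 RPKM in deficient roots alone, so that it entered the tested set through the group in which it was high. No log2 difference or test is given for it. In leaves the neighbours with the smallest adjusted p were enolase LAGI01_104718 and carbonic anhydrase LAGI01_75316 (log2 -2.18, SE 0.75, limma adjusted p = 0.426). The enolase was listed at 0 in deficient leaves and at 0, 6.5 and 3.6 RPKM in sufficient leaves. Its only other value above 0 was 2.0 RPKM, in deficient roots of replicate 2. It entered the tested set largely through sufficient leaves, so no log2 difference or test is given for it. The carbonic anhydrase stood at 19.3, 2.2 and 1.4 RPKM in deficient leaves, against 12.4, 18.1 and 38.9 RPKM in sufficient leaves, with replicate 1 on the other side.

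Sequences with a like profile were sought by Pearson r of log2(RPKM + 0.5) over the 12 libraries, which fall into roots and leaves and share their depth and day timing. For PPCK1 LAGI01_44806 the 5 most alike, of different descriptions, were SPX2 (r 0.961), a glycerophosphoryl diester phosphodiesterase family protein (0.95), the glycerophosphodiester phosphodiesterase SRG3 (0.923), the pyrophosphatase AtPPa4 (0.92) and the galactolipid synthase MGD2 (0.919). For PEPC LAGI01_43052 they were the ADP/ATP carrier AAC2 (0.977), a quinone reductase family protein (0.948), the ferritin ATFER1 (0.941), the kinase-domain protein MEE62 (0.926) and the ascorbate peroxidase APX2 (0.924). The 2 lists shared no description.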

How the data were processed

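Poly-A RNA of 12 libraries was read for 76 cycles on an Illumina Genome Analyzer, per the labels' protocols. Bowtie was used, per the submitters' processing notes, with no version or role. How reads matching several sequences were assigned is not given in the sources used here. The values deposited by the authors were taken to be RPKM, a unit inferred from the values, and 2 further columns were empty and unused. Depth is unknown. Gene names come from the deposited annotation. Members, lists and alternatives were chosen with earlier results of these data known.

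Tests covered the 87081 of 125535 sequences (69.4%) that reached 1 RPKM in at least 3 libraries. Values were taken as log2(RPKM + 0.5), a scale that understates changes of low sequences. A linear model of 4 group means over the 12 libraries was fitted with limma 3.58.1 (trended prior, R 4.3.3), with Benjamini-Hochberg adjustment over all tested sequences. Calls were limma adjusted p below 0.05, and "unadjusted p" is from the same fit. The procedure was tested on simulated data. Count-based tests were not run, since the values are not counts. Figures were drawn with Python 3.11.15 and matplotlib 3.10.9.

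All members were described, as were the neighbouring enzymes with the 2 smallest adjusted p in each organ's response and the 5 most alike sequences of the most abundant PEPC and PPCK members. Samples with equal replicate numbers deviated together (r of deviations 0.40 to 0.75 in roots and 0.13 to 0.24 in leaves). Unequal numbers gave -0.71 to 0.47 and -0.30 to 0.11. Centring each group on its own mean lowers r between unequal numbers. In roots replicates 2 and 3 also matched each other (r 0.47 and 0.44), and replicate 1 alone was sequenced without barcodes. The numbers were taken to pair the samples within an organ, a pairing not told apart from sequencing format. Alternatives were other pseudocounts, filters, scalings, spread estimates, a replicate block, the barcoded libraries alone, a clock covariate, values summed per description, wider membership, and leaving out each library.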

Additional observations from a re-analysis of the deposited data

How the results depend on the processing

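The root calls (3 members) depended on the processing: none was called at a pseudocount of 0.1, with root libraries only or with values summed per description, 1 with a mean filter of at least 2 RPKM, and 0 to 3 when 1 library was left out. LAGI01_66206 was called in 18 of 24 alternatives, LAGI01_74442 in 15 and LAGI01_61934 in 9; LAGI01_74442 was lost with median-of-ratios scaling (log2 1.83 against 1.87, limma adjusted p = 0.0559). With the replicate block within each tissue 3 members were called, with adjusted p of 0.0122 for LAGI01_66206, 0.0107 for LAGI01_74442 and 0.0318 for LAGI01_61934, and the block changed no member call in either response. The difference of responses had 1 call (barcoded libraries only) against 0, that of LAGI01_73333, whose leaf libraries there lay at or under 1.2 RPKM. The organ contrast with deficient phosphorus gave 26 calls with the clock covariate, against 16. All 26 were PEPC, and 0 of 8 PPCK1 were called (4 of 8 without the covariate). Without 1 library it gave 11 to 19 calls, and with sufficient phosphorus 12 to 19, against 16 in each. Summing per description left a single row for each of ATPPC1 to ATPPC4 and PPCK1. Summed counts are out of these rows and not out of 35 members. With summed values 3 of these rows were called with deficient phosphorus and 2 with sufficient phosphorus. Median-of-ratios scaling put the median of all sequences in the deficient organ contrast at 0.06, against 0.42, with 22427 sequences called higher and 19988 lower, against 25274 and 11489, and 13 members higher and 1 lower. Of 260 neighbours in roots, 1 was called with the block within each tissue, where 0.649% of all tested sequences were called. With barcoded libraries 2 were called in roots, where 0.508% of all tested sequences were, and 0 to 1 without 1 library. In leaves 10 of 260 were called with barcoded libraries, where 5.99% of all tested sequences were, and 0 to 1 without 1 library. LAGI01_86498 in the sufficient organ contrast reversed to 0.19 with barcoded libraries only and lay between -0.84 and 0.28 without 1 library, reversing without leaf sufficient replicate 1. Over all 35 members signs reversed in 17 of 840 root and 89 of 840 leaf values, none of them a called one. The cause of these changes was not tested.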
